A study of Mus musculus with 3 samples.

Results

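The C/EBP transcription factors were described here as 5 genes, Cebpa, Cebpb, Cebpd, Cebpg and Cebpz, taken by name from the 3 count tables and found in all of them, out of 14221 genes listed in any table and 11979 listed in every table. The tables hold unique molecular identifiers (UMIs, counts of single RNA molecules) per gene and cell. The cells were CD11b+ CD45+ cells sorted from mouse brain, a gate that takes microglia together with other myeloid cells. The deficient group was 1 library from a mouse without MHC class II, in which CD4 T cells were nearly absent according to the labels. The wild type (WT) group was 2 libraries, WT 1 and WT 2, labelled as adult and made from 2 mice. The allele, strain and sex are not given in the labels, nor is the age of the deficient mouse, and no treatment is named for either group.

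C/EBP proteins are basic leucine zipper transcription factors that bind DNA as pairs, with themselves or with other leucine zipper proteins. Cebpa establishes the granulocyte and macrophage lineages and stays on in mature myeloid cells. Cebpb and Cebpd are induced by inflammatory stimuli, and Cebpg, which has no strong activation domain of its own, acts mainly as a partner of the others. Cebpz carries the family name because it was described as a CCAAT-binding factor, but it has no leucine zipper and is known as a nucleolar protein of ribosome production. Microglia are the resident macrophages of the brain, and border macrophages are those of its meninges and vessels.

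The promoters of 3 members were found among the RefSeq promoter windows (assembly GRCm38.p6, 250 bases before the transcription start and 50 after it), and Cebpd and Cebpz were not among them. They are shown because Cebpa and Cebpb had the largest folds of the family, whereas Cebpg had a small one. Capitals mark matches on either strand to 5 motifs. These are TTGCGCAA, the palindromic C/EBP site, and CCAAT. The core of CREB and ATF sites, TGACG, was also searched, as was CACGTG, the E-box. The last was TATAAA, the TATA box. The Cebpa window lies at chr7:35119043-35119342 on the plus strand, the Cebpb window at chr2:167688665-167688964 on the plus strand, and the Cebpg window at chr7:35056517-35056816 on the minus strand.
Cebpa: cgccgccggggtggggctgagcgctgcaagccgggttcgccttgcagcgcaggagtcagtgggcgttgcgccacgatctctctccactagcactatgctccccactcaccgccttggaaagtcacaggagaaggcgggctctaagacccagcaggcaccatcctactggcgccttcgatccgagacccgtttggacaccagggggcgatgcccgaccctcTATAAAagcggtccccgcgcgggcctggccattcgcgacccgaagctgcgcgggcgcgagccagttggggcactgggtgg
Cebpb: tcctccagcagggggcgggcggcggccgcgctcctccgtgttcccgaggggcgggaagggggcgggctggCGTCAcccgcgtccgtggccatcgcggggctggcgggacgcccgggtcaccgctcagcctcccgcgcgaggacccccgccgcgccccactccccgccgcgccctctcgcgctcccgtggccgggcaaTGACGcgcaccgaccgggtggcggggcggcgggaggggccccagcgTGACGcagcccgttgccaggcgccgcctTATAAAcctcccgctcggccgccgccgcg
Cebpg: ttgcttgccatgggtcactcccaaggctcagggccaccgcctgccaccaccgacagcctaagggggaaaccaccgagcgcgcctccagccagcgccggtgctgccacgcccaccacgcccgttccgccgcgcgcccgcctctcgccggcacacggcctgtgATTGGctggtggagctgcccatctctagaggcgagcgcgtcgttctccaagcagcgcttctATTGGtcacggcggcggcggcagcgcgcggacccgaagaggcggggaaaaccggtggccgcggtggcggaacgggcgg

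The Cebpa window held TATAAA with its first base at -30 from the start site, and no match to the other 4 motifs. The Cebpb window held 3 matches to TGACG, at -180, -53 and -7, and TATAAA at 21. The Cebpg window held 2 matches to CCAAT, both read on the other strand as ATTGG. Of 32851 windows of this length, 37.4% held CCAAT, 20.8% TGACG, 13.6% TATAAA, 7.15% CACGTG and 0.183% TTGCGCAA. A match is a run of letters and not a measured binding site. The windows were rich in G and C, with 67.3% in Cebpa, 80.7% in Cebpb and 71.7% in Cebpg, against a median of 52.7% over all windows. The Cebpb window was richer in G and C than 99.2% of them.

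The deficient library held 2278 barcodes and 6616662 UMIs, and the WT libraries 4589 and 4815 barcodes and 16230216 and 17293844 UMIs. A cell was kept if it had 500 UMIs and 200 genes or more and a mitochondrial share of no more than 10%. This left 2257 deficient cells and 4340 and 4667 WT cells, whose median depths were 2824 UMIs (deficient) and 3384.5 and 3338 UMIs (WT). The deficient library shared 19 and 13 barcodes with WT 1 and WT 2, which shared 30 with each other. Cells were put into classes by the UMIs of marker genes, which gave 2166 microglia in the deficient library and 3857 and 4342 in WT. The other classes were small in the deficient library, with 17 neutrophils (271 and 133 in WT), 5 classical monocytes (41 and 30), 12 non-classical monocytes (7 and 10) and 10 border macrophages (33 and 28). Deficient microglia had UMIs of all 11 microglial markers, with a summed level of 34632 counts per 1e6 UMIs (CPM), against 34482 and 36611 CPM in WT. The deficient border macrophages had UMIs of 7 of 12 markers, with Cd163, Lyve1, Cbr2, Cd209f and Siglec1 at 0, so that class rests on fewer markers there than in WT, where 10 and 12 had UMIs.

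Cebpa was the most strongly lowered member in microglia. It stood at 30.2 CPM in the deficient library (191 UMIs), against 551 CPM in WT 1 and 447 CPM in WT 2 (7600 and 6930 UMIs). The deficient value lay far below both WT values, whose own log2 ratio was 0.29 (WT 1 over WT 2). Summed per library over microglia, the UMIs gave a log2 fold change of deficient over WT of -4.03 with an SE of 0.17 (16.4-fold lower). Its adjusted p was 8.49e-08 (edgeR quasi-likelihood test, Benjamini-Hochberg adjustment over 11860 genes). By log2 fold change it ranked number 31 from the lowest of the tested genes. The spread of each gene comes from the WT libraries alone (1 residual degree of freedom). The deficient library is assumed to vary in the same way. edgeR moderates this spread with one pooled over the tested genes, so each p rests on the pooled spread as well. The weight of the pooled spread can differ between fits, so the sizes of p from different fits are not comparable. Genotype, animal and library preparation cannot be told apart with 1 deficient library.

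Cebpb, which drives inflammatory genes in macrophages, was the next. Its level was 7.76 CPM in deficient microglia (49 UMIs), against 84.8 CPM in WT 1 and 47.9 CPM in WT 2. The WT libraries themselves differed by a log2 ratio of 0.81, less than the distance of either from the deficient library. Cebpb was 8.45-fold lower (log2 fold change -3.08 with SE 0.37, adjusted p = 0.000216, edgeR). Its log2 fold change was -2.62 without WT 1 and -3.44 without WT 2.

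Deficient and WT microglia lay mostly in different Leiden clusters, which were made without the 5 members. Cluster 0 held 1620 of the 2166 deficient microglia, against 125 of 3857 in WT 1 and 325 of 4342 in WT 2, and cluster 6 held 233, against 5 and 9. Clusters 1 to 5 held 293 deficient microglia, against 3693 and 3973 in WT. Within cluster 0, Cebpa stood at 31.6 CPM in the deficient library (exact 95% Poisson interval 26.6 to 37.2), against 365 CPM in WT 1 (300.4 to 440) and 297 CPM in WT 2 (262 to 335). Cebpb stood there at 5.26 CPM in the deficient library (3.37 to 7.83), against 32.9 (15.8 to 60.5) and 24.7 CPM (15.5 to 37.3) in WT. In each of clusters 0 to 7 the deficient Cebpa interval lay below both WT intervals. These levels within clusters were computed after the class values were seen and carry no test.

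Cebpd and Cebpg fell much less. Cebpd stood at 119 CPM in deficient microglia, against 192 and 185 CPM in WT (log2 fold change -0.65 with SE 0.094, adjusted p = 0.000836, edgeR). Cebpg stood at 141 CPM in deficient microglia, against 184 and 176 CPM in WT (log2 fold change -0.34 with SE 0.093, adjusted p = 0.0464, edgeR). For both, the deficient value lay outside the range of WT. The call of Cebpg was lost with no filter on low counts (adjusted p = 0.0532), with DESeq2 (0.248) and over all retained cells (0.102).

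Cebpz, the member without a leucine zipper, did not pass the test. It stood at 207 CPM in deficient microglia, against 190.3 and 175 CPM in WT (log2 fold change 0.19 with SE 0.094, adjusted p = 0.294, edgeR). In microglia 4 of the 5 members were thus called lower and 0 higher. The background of this comparison was 739 genes called lower of 11860 tested (6.23%) and 167 called higher (1.41%). The median log2 fold change was -0.65 over the 5 members and -0.001 over all tested genes. In a plot of fold change against level over all genes, Cebpa and Cebpb lie at the lower edge of the genes of similar abundance.

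**Figure D1:**
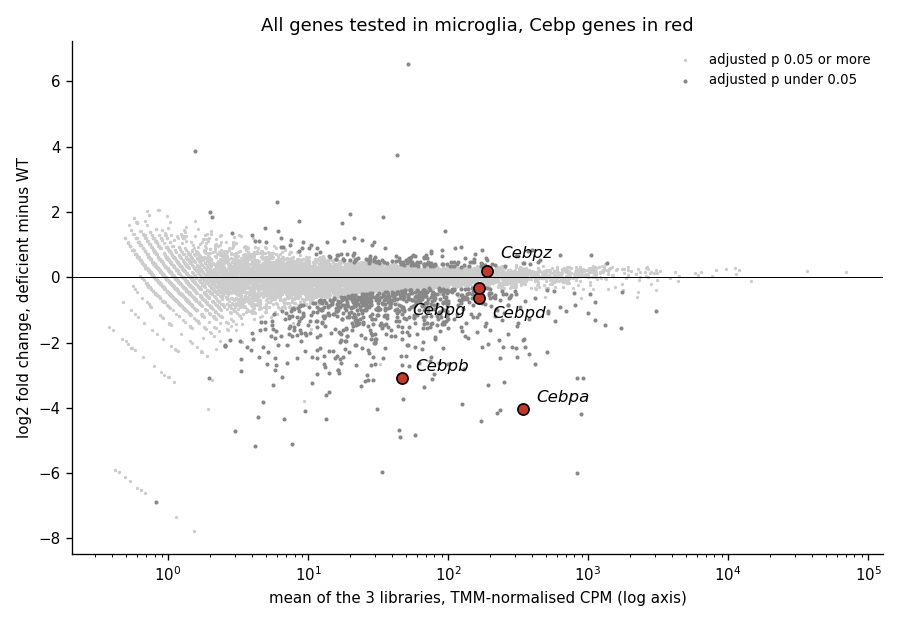
Log2 fold change of each gene tested in microglia (deficient over WT, edgeR) against its mean TMM-normalised CPM over the 3 libraries on a log axis, with genes at an adjusted p under 0.05 in dark grey. Cebpa (-4.03) and Cebpb (-3.08) lie below most genes of their level. Cebpd (-0.65) and Cebpg (-0.34), also called lower, have smaller falls, and Cebpz (0.19) was not called.

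The difference of Cebpa was seen in the share of microglia with a UMI and in the UMIs per cell. After each cell was thinned to 1000 UMIs, which left 2127 deficient cells and 3809 and 4292 WT cells deep enough, 3.24% of deficient microglia had a Cebpa UMI (exact 95% interval 2.53 to 4.09), against 38.6% in WT 1 (37.02 to 40.1) and 32.8% in WT 2 (31.4 to 34.3). Unthinned, the shares were 8.31% in the deficient library and 72.4% and 67.5% in WT. No deficient microglial cell had more than 3 Cebpa UMIs, against highest counts of 29 and 26 in WT cells. Cells with at least 2 Cebpa UMIs made up 0.462% of deficient microglia, against 45.2% and 38.8% in WT. As a low-expressing class, neutrophils had a Cebpa UMI in 0 of 17 deficient cells (interval up to 19.5%), and in 9.23% and 7.52% of WT cells, unthinned, with median depths of 2177 UMIs in the deficient library and 2993 and 3150 in WT. Intervals cover counting error only.

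For Cebpb, 0.752% of thinned deficient microglia had a UMI (0.431 to 1.22), against 7.17% (6.37 to 8.03) in WT 1 and 4.36% (3.77 to 5.01) in WT 2. The highest count in a deficient microglial cell was 2 Cebpb UMIs, against 9 and 4 in WT. Cebpd was seen in 10.2% of thinned deficient microglia, against 16.6% in each WT library, and Cebpg in 12.5%, against 17.1% and 16.1%. Cebpz was seen in 18.0%, against 17.1% and 16.3%, with overlapping intervals (16.4 to 19.7 in the deficient library, 15.9 to 18.4 and 15.2 to 17.4 in WT).

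**Figure D2:**
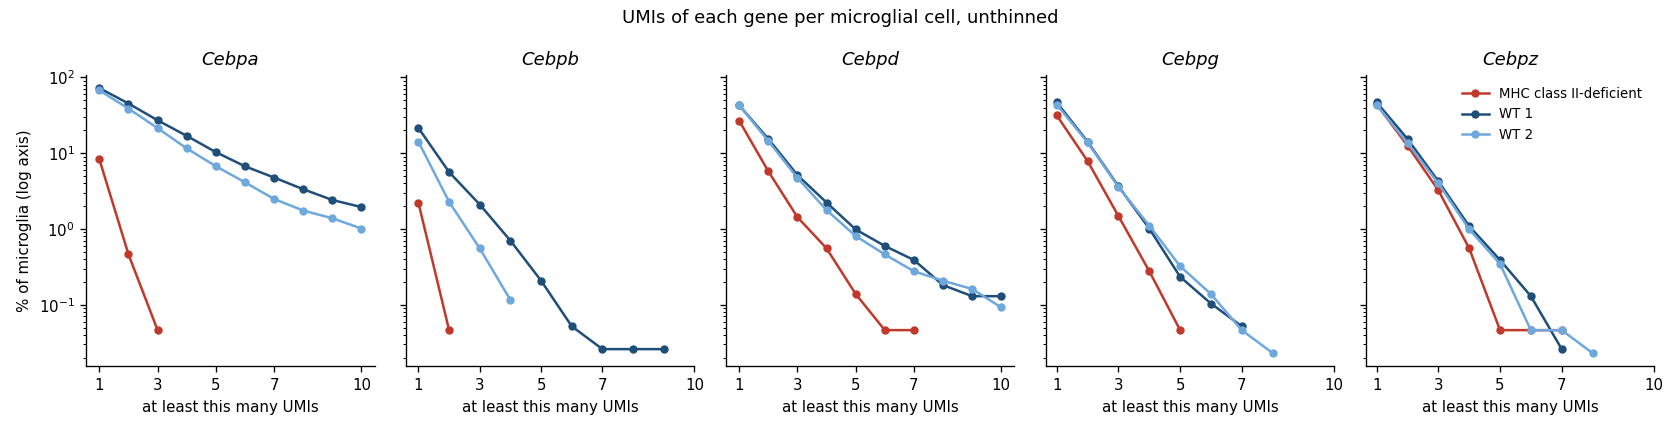
Percent of microglia (log axis) with at least the given number of UMIs of each gene, from 1 to 10, unthinned, by library. The deficient curve of Cebpa ends at 3 UMIs and that of Cebpb at 2, while the 3 curves of Cebpz run close together.

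Immediate early genes, whose transcription starts quickly after a stimulus or tissue digestion, moved with the result, as 7 of 9 listed genes also fell in deficient microglia, where 6.23% of all tested genes did. With DESeq2, 1 of the 9 was called. Fos, a subunit of AP-1, had a log2 fold change of -1.56 (adjusted p = 0.00285), Jun -1.04 (adjusted p = 0.00376), Btg2 -1.08 (adjusted p = 0.00172) and Fosb -2.14 (adjusted p = 6.9e-05, all edgeR). Microglia were therefore split by their immediate early UMIs after thinning to 1000 UMIs. Cells with 0 such UMIs made up 33.1% of deficient microglia, against 6.98% and 13% in WT, and cells with 5 or more made up 19.8%, against 52.8% and 33.9%.

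Within each of these strata Cebpa and Cebpb were lower in the deficient library. In cells with 0 immediate early UMIs, Cebpa stood at 34.3 CPM in the deficient library, against 391 CPM in each WT library, which is 11.4-fold lower than the WT mean. In cells with 5 or more it stood at 29.7 CPM, against 628 and 555 CPM, or 19.9-fold lower. The deficient level of Cebpa stood between 27.9 and 34.3 CPM in the 3 strata, with overlapping intervals, whereas both WT levels were highest in the cells with 5 or more. Cebpb stood at 3.93 CPM in deficient cells with 0 immediate early UMIs, against 50.8 and 29.6 CPM in WT, and at 14.9 CPM in those with 5 or more, against 110.4 and 73.1 CPM. It was 10.2-fold lower than the WT mean in the stratum with 0, and 6.05-fold and 6.18-fold lower in the strata with 1 to 4 and with 5 or more. The deficient values rest on 8, 21 and 20 Cebpb UMIs in this order, with a wide interval of 1.69 to 7.74 CPM in the stratum with 0. Cebpd was 1.40-fold, 1.59-fold and 1.73-fold lower in the 3 strata, in the same order, and Cebpg 1.28-fold, 1.28-fold and 1.35-fold lower. Tested with edgeR on the cells with 0 immediate early UMIs alone, Cebpa was called lower with a log2 fold change of -3.47 (adjusted p = 4.34e-73, and 6.6e-05 at most over all alternatives). Cebpb was called there too, at -3.19 (adjusted p = 9.98e-13, and 0.00857 at most). Cebpd, at -0.44, did not pass (adjusted p = 0.0957, and 7.86e-05 at least over all alternatives), nor did Cebpg, at -0.31 (adjusted p = 0.371, and 0.0188 at least).

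**Figure D3:**
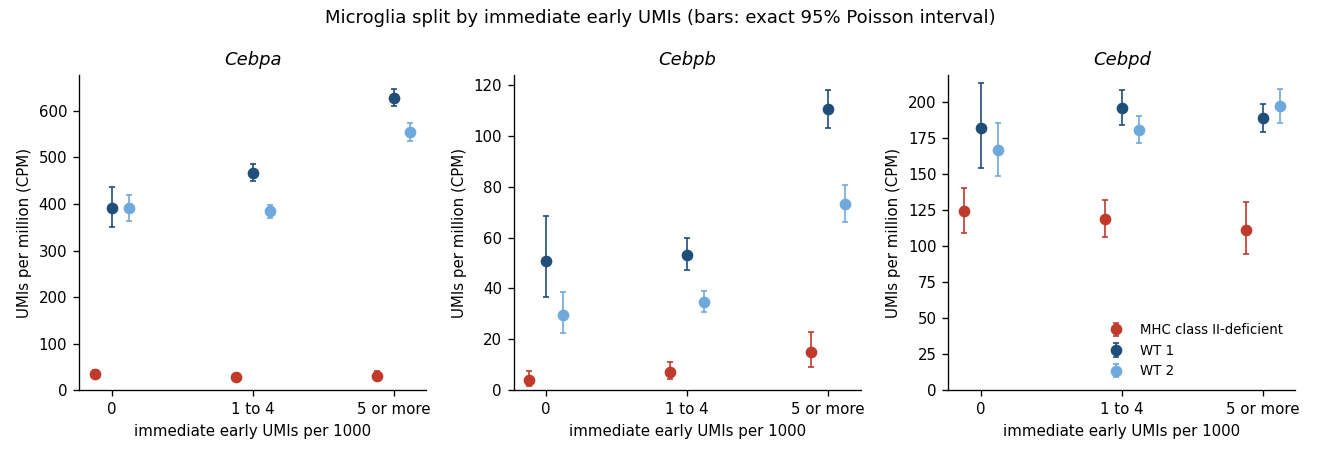
CPM of Cebpa, Cebpb and Cebpd in microglia with 0, 1 to 4, and 5 or more immediate early UMIs per 1000, by library, with exact 95% Poisson intervals. The deficient library stands below both WT libraries in every stratum of the 3 genes.

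The 5 members were then read in the other cell classes. Microglia held most UMIs of the family, with 95.5% of the Cebpa UMIs of the deficient library and 95.7% and 95.2% in WT. For Cebpb the microglial share was 72.1% in the deficient library and 62.2% and 69.4% in WT, and neutrophils held 8.82% in the deficient library and 21.1% and 11.5% in WT. Among WT classes, Cebpa was highest in microglia, then in border macrophages (213 and 175 CPM in WT 1 and WT 2), classical monocytes (121 and 86.6 CPM) and neutrophils (37.4 and 15.9 CPM). The Poisson intervals of border macrophages and classical monocytes overlapped in each WT library. Non-classical monocytes had 2 and 0 Cebpa UMIs. For Cebpb microglia were the lowest class of WT. Its level was 589 and 410.2 CPM in WT non-classical monocytes, 371 and 280.3 CPM in classical monocytes, 315 and 178 CPM in neutrophils and 295 and 198 CPM in border macrophages, and the microglial intervals lay below all of these. Among the others the intervals of neighbours in this order overlapped, except between classical monocytes and neutrophils of WT 2.

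**Figure D4:**
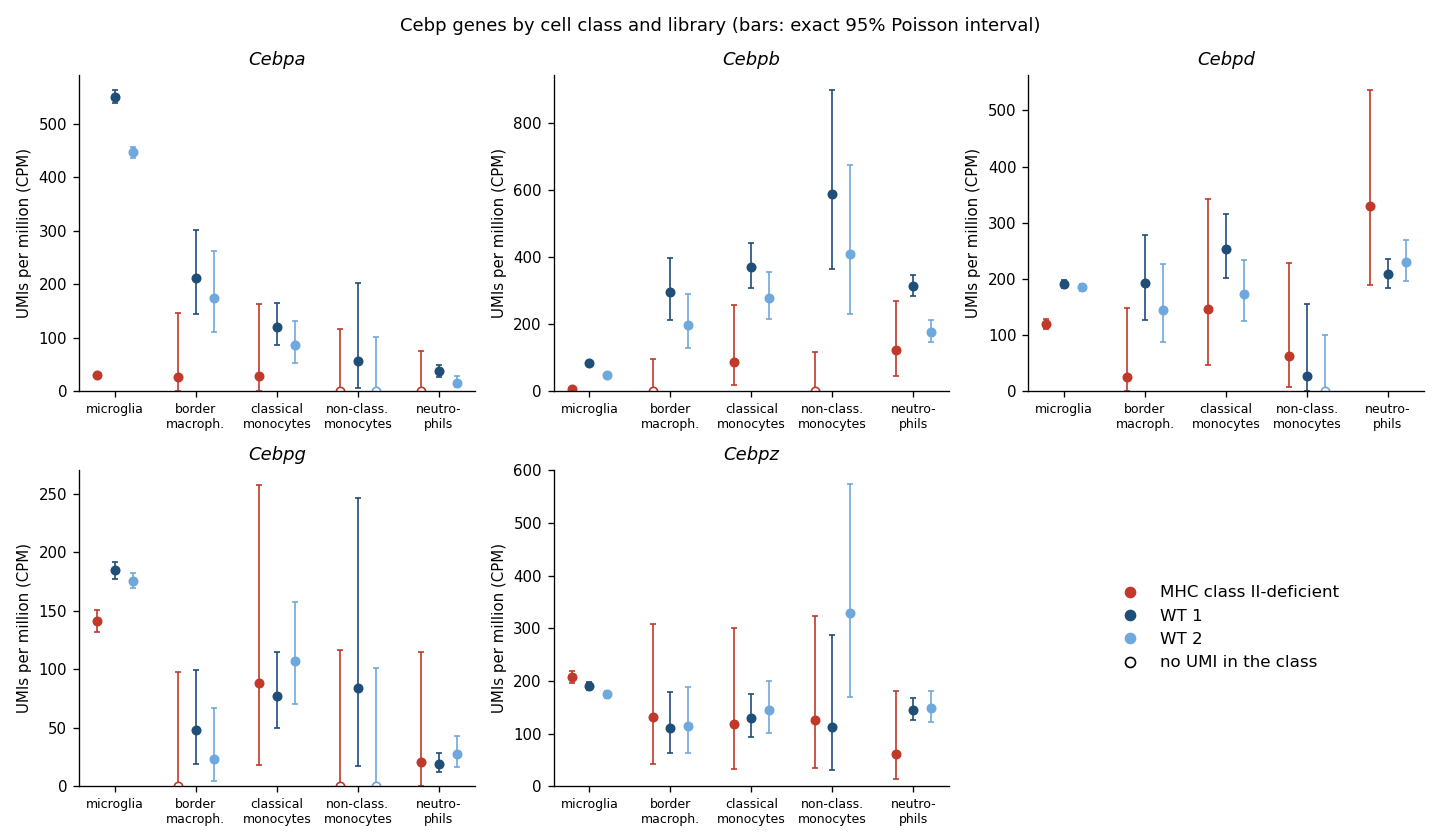
CPM of each Cebp gene in 5 cell classes (x axis) and 3 libraries, from UMIs summed over the cells of a class, with exact 95% Poisson intervals; an open symbol marks a class with no UMI of the gene. The deficient value lies below both WT values for Cebpb in all 5 classes and for Cebpa in every class but non-classical monocytes, where WT 2 also has no UMI. The deficient interval lies below both WT intervals for Cebpa in microglia, and for Cebpb in microglia, border macrophages and non-classical monocytes.

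In border macrophages, Cebpb had 0 UMIs in the 10 deficient cells, against 43 UMIs (295 CPM) in WT 1 and 26 UMIs (198 CPM) in WT 2. The deficient total of 37774 UMIs gives a floor of 79.4 CPM (3 counts over the class). Set at this floor, Cebpb was 3.10-fold lower than the WT mean, and its interval reached 97.7 CPM. It was called lower (adjusted p = 0.00128, edgeR), as 1 of the 4 members tested, where 48 of 2652 genes were called lower (1.81%) and 35 higher (1.32%). Cebpa had 1 UMI in deficient border macrophages (26.5 CPM), against 31 and 23 UMIs in WT (213 and 175 CPM), and did not pass (log2 fold change -2.89 with SE 0.96, adjusted p = 0.0774). Cebpd also had 1 UMI, against 28 and 19 UMIs in WT (192 and 145 CPM), and did not pass (log2 fold change -2.69, SE 0.99, adjusted p = 0.139). Cebpz stood at 132 CPM in deficient border macrophages, against 110 and 114 CPM in WT (adjusted p = 0.935). Cebpg had 0 UMIs in the deficient class, against 7 and 3 in WT, and was too low to be tested. Of the cells put in this class by markers, 4 of 10 deficient cells lay in the Leiden cluster of monocytes, against 9 of 33 and 9 of 28 in WT. In the cells of the class that lay in the border macrophage cluster, Cebpb had 0 UMIs in 6 deficient cells (floor 118 CPM), against 37 UMIs in 24 WT 1 cells (323 CPM) and 24 UMIs in 18 WT 2 cells (263 CPM). Microglial RNA was also present in this class: at the measured level of microglial markers it alone would give 1.83 CPM of Cebpa in the deficient library and 62.1 and 57.1 CPM in WT, below the WT values measured.

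In monocytes the 2 kinds were too few in 1 library or another to be tested apart. Cebpb had 3 UMIs in the 5 deficient classical monocytes (88.1 CPM, interval 18.2 to 258), against 371 and 280.3 CPM in WT, with intervals of 308 to 444 in WT 1 and 218 to 355 in WT 2. Its interval was thus below that of WT 1 and overlapped that of WT 2. In the 12 deficient non-classical monocytes Cebpb had 0 UMIs, against 21 and 15 UMIs in 7 and 10 WT cells. Set at the floor of 94.9 CPM, it was 5.27-fold lower than the WT mean, and its interval reached 117 CPM. The deficient cells of this class had 5502.5 CPM of classical monocyte markers, against 2692 and 2325 CPM in WT. Their non-classical markers summed to 5218 CPM, against 4010 and 4622 CPM. Their median depth was 2182 UMIs, against 4482 and 3177, so the class was not alike in all libraries. Cebpa had 1 UMI in deficient classical monocytes (29.4 CPM, interval 0.744 to 164), overlapping both WT libraries. Cebpd stood at 147 CPM in deficient classical monocytes, against 254 and 173 CPM in WT, Cebpg at 88.1 CPM, against 77.4 and 107 CPM, and Cebpz at 118 CPM, against 130 and 144 CPM, all with overlapping intervals.

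With both kinds of monocytes summed, a choice made after the values were seen, Cebpb stood at 45.7 CPM in 17 deficient cells, against 393 and 297 CPM in 48 and 40 WT cells. It was called lower (log2 fold change -2.95 with SE 0.56, adjusted p = 2.18e-05, edgeR), as 1 of the 5 members, where 92 of 4513 genes were called lower (2.04%) and 65 higher (1.44%). The deficient value rests on 3 UMIs. DESeq2 gave a log2 fold change of -2.94 that did not pass (adjusted p = 0.119). Non-classical cells were 12 of 17 deficient monocytes, against 7 of 48 and 10 of 40 in WT. The WT level of Cebpb was higher in non-classical than in classical cells, with overlapping intervals in each WT library. The part of this mix in the summed fold was not tested. Cebpa stood at 15.2 CPM, against 114 and 75.2 CPM, and did not pass (log2 fold change -2.65, SE 0.96, adjusted p = 0.142, edgeR), nor did Cebpd, Cebpg or Cebpz.

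In neutrophils none of the 5 members was called, where 83 of 4830 genes were called lower (1.72%) and 40 higher (0.828%). Cebpb stood at 124 CPM in the 17 deficient neutrophils (6 UMIs), against 315 and 178 CPM in WT (log2 fold change -1.26 with SE 0.47, adjusted p = 0.162, edgeR). The Cebpb log2 fold change in neutrophils moved to -2.57 under a stricter cell filter and to -0.67 with classes from Leiden clusters. It was called in neither. The median log2 fold change of all genes tested in neutrophils was -0.57, against -0.001 in microglia. Cebpd stood at 330.2 CPM in deficient neutrophils (16 UMIs), against 208 and 229.9 CPM in WT (log2 fold change 0.35, SE 0.37, adjusted p = 0.629). Cebpz had 3 UMIs in deficient neutrophils (61.9 CPM), against 146 and 149 CPM in WT (log2 fold change -1.49, SE 0.63, adjusted p = 0.336), and Cebpg had 1 UMI, against 24 and 19.

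Cebpa had 0 UMIs in deficient neutrophils, against 47 and 11 in WT (37.4 and 15.9 CPM). The deficient floor of 61.9 CPM is above both WT values, so no difference was detectable at this depth. Microglial RNA at the measured marker level would give 24.4 and 14.4 CPM of Cebpa in WT neutrophils by itself. These values lie below the Poisson interval of WT 1 (27.5 to 49.7 CPM) and within that of WT 2 (7.94 to 28.5 CPM). Of the 47 Cebpa UMIs in WT 1 neutrophils, 12 came from 1 cell, a spread that the Poisson interval does not cover. Cebpe, a relative that acts late in granulocyte maturation and is no member here, stood at 253 and 296 CPM in WT neutrophils. The deficient table does not list Cebpe, so no count is given for it there. The floor of the 17 deficient neutrophils, 61.9 CPM, lies below both WT values of Cebpe. By what rule genes were listed is not stated, and why Cebpe is missing was not tested.

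Whether the fold in a class differed from that in microglia was tested itself, with the class by genotype term and library as a block. For Cebpb the neutrophil fold was less negative than the microglial fold by 1.68 on the log2 scale (SE 0.72, unadjusted p = 0.0204, adjusted p = 0.558, edgeR), and in monocytes the difference was -0.14 (SE 0.85, adjusted p = 1). With classes from Leiden clusters the neutrophil difference was 2.17 (adjusted p = 0.0526). In border macrophages, where the deficient library has no Cebpb UMI and the fitted value is no measure of size, the adjusted p was 0.958. No member passed in neutrophils (100 of 10874 genes called, 0.92%), in monocytes (54 genes called, 0.492%) or in border macrophages (0 genes called, 0%, with 423 of 10917 genes at an unadjusted p under 0.05, and 0 also with DESeq2 size factors). A p that misses the threshold does not show that the folds were alike. A fall of Cebpb was thus called in microglia, border macrophages and summed monocytes and not in neutrophils, and the fall of Cebpa was called in microglia and in none of the other 3 classes tested. For no member was a class shown to differ from microglia.

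Genes that act with the family were counted in microglia. Of 19 listed partners and regulators 15 were tested, and 7 fell (among them Atf3, Atf4, Ddit3, Nfil3 and Trib1), 0 rose and 8 missed the threshold, where 6.23% of all tested genes were called lower and 1.41% higher. DESeq2 called 4 of the 15. The median log2 fold change over those tested was -0.15, against -0.001 over all genes. Atf3, a stress-induced leucine zipper factor that is also on the immediate early list, stood at 398 TMM-normalised CPM in deficient microglia, against 884 and 616 CPM in WT (log2 fold change -0.92 with SE 0.18, adjusted p = 0.00716). Nfil3, another leucine zipper factor, had the largest fold of the list at low levels, 1.11 CPM against 7.35 and 6.73 CPM (log2 fold change -2.65, adjusted p = 0.00091). Spi1, the PU.1 factor that works with C/EBP proteins on myeloid promoters, stood at 529 CPM, against 541 and 552 CPM (adjusted p = 0.859), and Runx1 at 267 CPM, against 272 and 252 CPM (adjusted p = 0.92, all edgeR).

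Of 21 listed myeloid genes with known C/EBP regulation 18 were tested, and 5 fell (Il1b, Lcn2, Ltf, S100a8 and S100a9), 0 rose and 13 missed the threshold, beside the same shares of 6.23% and 1.41% over all genes. Their median log2 fold change was -0.86, against -0.001 over all genes. Csf1r, the receptor that microglia need to survive, stood at 3785 CPM in deficient microglia, against 3739 and 3991 CPM in WT (log2 fold change -0.03, adjusted p = 0.932). Cd14, a lipopolysaccharide co-receptor, stood at 482 CPM, against 540 and 569 CPM (adjusted p = 0.337), and the chemokine Ccl3 at 648 CPM, within the WT values of 1457 and 573 CPM (adjusted p = 0.391). Lcn2, an iron-binding protein of neutrophils, had the largest fold (log2 fold change -4.35, adjusted p = 5.34e-05, edgeR). Lcn2, Ltf, S100a8 and S100a9 are also neutrophil markers. The 14 neutrophil markers summed to 50.8 CPM in deficient microglia, with Ly6g and Stfa2l1 at 0, against 1203 and 643 CPM in WT, and neutrophils made up 0.753% of deficient cells, against 6.24% and 2.85%. Their part in these 4 folds and in that of Cebpb was not tested. Neutrophil RNA at these marker levels would give 0.0131 CPM of Cebpb in deficient microglia and 0.809 and 0.228 CPM in WT, where the measured values were 7.76 CPM (deficient) and 84.8 and 47.9 CPM (WT). Of 8 partners of Cebpz in nucleolar and CCAAT-binding work, 0 were called by edgeR (1 had an unadjusted p under 0.05) and 0 by DESeq2. With 6.23% of all genes called lower and 1.41% higher, a count of 0 among 8 is near the background. They include Nfya (-0.17), Nfyb (-0.15), Mettl3 (0.08) and Noc4l (0.35) by log2 fold change.

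The members differ in gene structure. On mm10 with GENCODE release M21, Cebpa (ENSMUSG00000034957, chr7:35119293-35121928), Cebpb (ENSMUSG00000056501, chr2:167688915-167690418) and Cebpd (ENSMUSG00000071637, chr16:15887286-15891031) have 1 exon each on the plus strand. Cebpg (ENSMUSG00000056216, chr7:35046422-35056573) has 2 exons and Cebpz (ENSMUSG00000024081, chr17:78919006-78937066) has 16, both on the minus strand. The 2 members with the largest falls have the transcripts richest in G and C, with 62.6% in Cebpa and 67.2% in Cebpb, against 51.6% in Cebpd, 43.3% in Cebpg and 43.4% in Cebpz. That order did not hold in the last 500 bases, at the 3' end. There the content was 49.6% in Cebpa, below Cebpd at 51%, with 53.2% in Cebpb, 39.4% in Cebpg and 37% in Cebpz.

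The share of genes called lower in microglia was counted by structure, as a description. Of all tested protein-coding genes 6.62% were called lower. The share was 12.8% of 313 genes with 1 exon, 13.8% of 391 genes with 60 to 65% G and C, and 41.4% of 29 genes with 65 to 70%, a group whose median log2 fold change was -0.60. Among 31 genes with 1 exon and at least 60% G and C, 35.5% were called lower and the median was -0.46. Cebpa and Cebpb are counted in these groups and lie below their medians. The part of transcript composition in their folds was not tested.

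**Figure D5:**
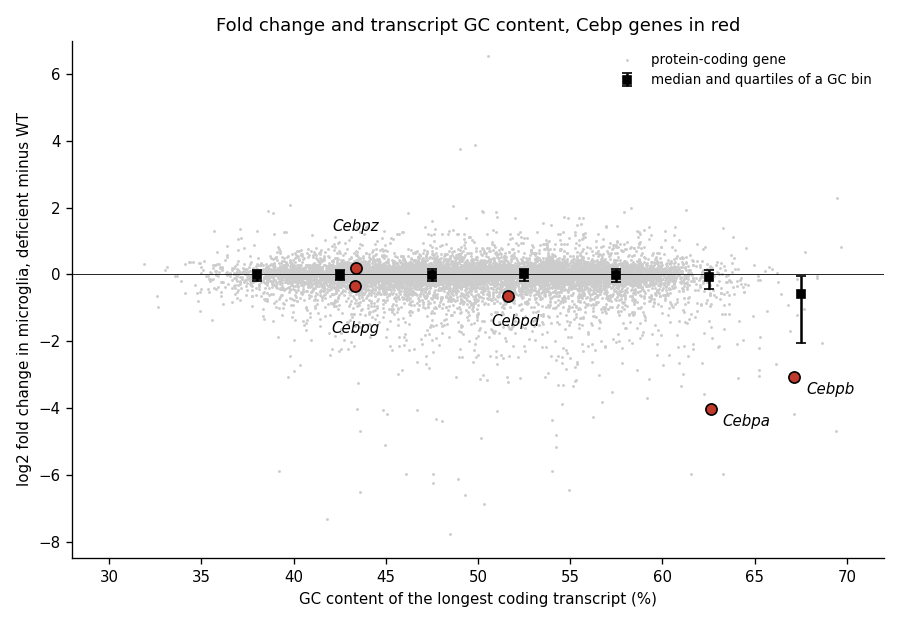
Log2 fold change in microglia (deficient over WT) of each protein-coding gene against the G and C content of its longest coding transcript, with the median and quartiles of each bin of content as black squares and bars. The medians stay near 0 up to 60% and stand at -0.60 in the 65 to 70% bin, and Cebpa (-4.03) and Cebpb (-3.08) lie below the quartiles of their bins.

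Every member is overlapped by an annotated gene on the opposite strand. Tmem189 overlaps Cebpb by 908 bases, Spidr overlaps Cebpd by 1808, Cebpzos overlaps Cebpz by 1301, Gm45095 overlaps Cebpg by 353 and Gm45091 overlaps Cebpa by 313. Whether strand was used in counting is not stated in the labels. Whether any UMIs in these overlaps were assigned to the opposite gene was not tested. Gm45095 is listed in none of the tables. Tmem189 had a log2 fold change of -0.71 in microglia (adjusted p = 0.00769, edgeR), and Cebpzos 0.02 (adjusted p = 0.95). Gm45091 had 7 and 5 UMIs in all barcodes of the WT libraries, against 7600 and 6930 Cebpa UMIs in their microglia.

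The genes whose levels ran most like those of Cebpa and Cebpb were taken over 12 sums (4 classes in 3 libraries), which share 3 libraries, from 5427 genes, by Pearson correlation of log2(CPM + 1). For Cebpa these were Ube2e3 (r = 0.949), a ubiquitin-conjugating enzyme, Ptpra (0.94), a receptor tyrosine phosphatase, and Tsc22d2 (0.927). The deficient sums held 0 Cebpa UMIs in neutrophils and 1 each in monocytes and border macrophages, so the correlations rest partly on sums near 0. The microglial sums were among the 12 used to pick the genes. In microglia the level of Ptpra was 88.8 CPM in the deficient library, against 239 and 233 CPM in WT. For Cebpb they were Stim2 (0.941), a calcium sensor of the endoplasmic reticulum, Stk11 (0.934), the LKB1 kinase, and Ptbp3 (0.929), an RNA-binding protein. The level of Stk11 was 11.7 CPM in deficient microglia, against 62.1 and 64.7 CPM in WT.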

How the data were processed

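Single-cell libraries (10x Genomics 3' kit, version 2) were made from CD11b+ CD45+ cells of digested brain, per the labels' protocols. The values deposited by the authors are raw UMI counts, 1 table a library, with genes and barcodes as its sides and no normalization. The submitters' processing notes name Cell Ranger 3.0, Seurat 2.2 and mm10; the authors' filters are not stated there or in the labels. The genes and lists were chosen with earlier results of these data known, and class thresholds were chosen on these cells.

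Microglia had at least 1.5% of UMIs from microglial markers, under 2% from neutrophil markers and under 3 markers of each other class. Neutrophils had at least 10% from neutrophil markers. Monocytes and border macrophages had at least 3 markers of their list, more than of the others, and under 1% microglial UMIs; 47 deficient cells and 131 and 124 WT cells stayed unassigned. Cells near the cut (a microglial share of 1 to 2%) numbered 85 in the deficient library and 209 and 190 in WT. No doublet caller was run, so doublets can remain.

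UMIs were summed per library and class and tested with edgeR 4.0.16 (quasi-likelihood, TMM, filterByExpr) in R 4.3.3 over genes listed in all 3 tables, where the deficient library had at least 10 cells (for non-classical monocytes, where every library had). With a WT library left out, a fold change is a value with no test. Expected Cebp levels from free RNA are the source class level times the share of its summed markers found in the class. Named genes were the 5 members, the 3 members of each list with the highest mean and the 1 with the largest fold, and 3 similar genes each for Cebpa and Cebpb; genes that fell were named as well, and some listed genes are not reported here by name. Shares have exact Clopper-Pearson 95% intervals. A transcript was found for 99.0% of tested genes. Levels within Leiden clusters were an alternative added after seeing the data. Other alternatives covered normalisation, filters, DESeq2 1.42.0, Leiden clusters (scanpy 1.11.5), depth, cell sets and each WT library left out.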

Additional observations from a re-analysis of the deposited data

How the results depend on the processing

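Cebpa and Cebpb stayed called lower in microglia under all 8 tested alternatives, with log2 fold changes of -4.03 to -3.47 and -3.19 to -2.98. Cebpd ranged from -0.72 to -0.44 (-0.44 and adjusted p = 0.0957 without cells that had immediate early UMIs), and Cebpz from 0.15 to 0.20, never called. Cebpg kept its direction at -0.45 to -0.29 but was not called with no count filter (-0.34), with DESeq2 (-0.34), over all retained cells (-0.29, adjusted p = 0.102) or without immediate early cells (-0.31). Leaving out each WT library gave -4.18 to -3.88 for Cebpa in microglia, -7.62 to -5.61 for Cebpa in neutrophils, -7.79 to -7.08 for Cebpb in border macrophages and 0.16 to 0.18 for Cebpz there; the values of genes at 0 in the deficient library depend on the prior count and are no bounds.

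DESeq2 called 491 of 10480 genes in microglia, against 906 of 11860 with edgeR. In the smaller classes it gave an adjusted p for far fewer genes and called 20 of 897 in neutrophils (123 of 4830 with edgeR), 21 of 1101 in monocytes (157 of 4513) and 11 of 390 in border macrophages (83 of 2652). Of the listed genes tested in microglia, DESeq2 called 4 of 15 partners and regulators (7 with edgeR) and 1 of 9 immediate early genes (7 with edgeR). With edgeR, 465 genes were called in microglia without immediate early UMIs, and 0 in neutrophils under the strict cell filter (439 genes at an unadjusted p under 0.05). Cebpb in monocytes was not called by DESeq2 (-2.94, adjusted p = 0.119). Signs turned for members near 0 and never called: Cebpg in neutrophils with Leiden classes (0.12), its difference from microglia there (0.31), and Cebpz in border macrophages with no filter (-0.09). The cause of these changes was not tested.

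DESeq2 gave no adjusted p for members in border macrophages, for Cebpa and Cebpg in neutrophils, or for Cebpa, Cebpg and Cebpz in monocytes. The strict filter and Leiden classes left under 10 deficient border macrophages, and those alternatives were not run there. Depth limits the classes other than microglia. No paired analysis was possible because the deficient library carries no replicate number that pairs it with a WT library.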
